A study of Mus musculus with 14 samples.

Results

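Serpins are a family of protein folds best known as suicide inhibitors of serine proteases. A serpin offers an exposed loop as bait, is cleaved by its target, and then snaps shut so that the protease is trapped in a dead complex. Plasma serpins control clotting, clot lysis and complement, the clade B members act inside cells against leukocyte proteases, and a few members have no inhibitory role and carry hormones or fold collagen instead. Most plasma serpins are made chiefly by the liver, and the kidney makes some of them in its tubules. The members described here are all genes of the expression table whose symbol begins with Serpin followed by a clade letter from a to i, with names ending in -ps left out. There are 63 of them among 49584 genes, and 2 of these, Serpina3h and Serpinb10, are annotated as kinds of pseudogene.

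Kidney RNA was sequenced from cKO mice given cisplatin (n = 4), WT mice given cisplatin (n = 4), untreated cKO mice (n = 3) and untreated WT mice (n = 3). The labels call the mice Ripk4 cKO, by the usual reading a conditional knockout of this receptor-interacting kinase, and wt. Cisplatin, a platinum drug toxic to the proximal tubule, was given as 15 mg per kg into the abdomen, with kidneys taken 4 days later. The Cre line, the cells that lose Ripk4, the strain, the age and the sex are not given in the sources used here, and nothing states that libraries came from separate animals, so p-values measure the spread between these libraries. Levels are FPKM, reads scaled by gene length and by the number of reads assigned to genes, so that levels of different genes can be compared. Assigned reads ran from 36.7 to 77.0 M reads per library, and 1 read in a gene of 1 kb was worth 0.0130 to 0.0273 FPKM. Differences are given on the log2(FPKM + 1) scale with the standard error of a limma model over all genes, and a gene is called, and said to rise or fall, at a two-sided Benjamini-Hochberg adjusted p under 0.05. The added 1 shrinks the differences of genes near or below 1 FPKM.

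Ripk4 transcripts were present in every cKO library. After cisplatin Ripk4 was lower in cKO: it lay between 3.61 and 9.09 FPKM in cKO cisplatin kidneys and between 7.61 and 13.3 FPKM in WT cisplatin kidneys (−0.72 ± 0.21, limma adjusted p = 0.02165). Without drug it lay between 3.68 and 4.61 FPKM in cKO kidneys and between 7.18 and 8.51 FPKM in WT kidneys, a difference that was not called (−0.81 ± 0.24, adjusted p = 1.00). 4 libraries stood apart. Replicates are numbered here in accession order, since the labels give no number. cKO cisplatin replicate 1 and WT cisplatin replicate 1 were low in podocyte markers (70.6 and 44.05 FPKM summed, against at least 131.6 FPKM in every other library). cKO untreated replicate 1 was low in the Serpina1 genes, and cKO cisplatin replicate 4 was high in the sum of proximal tubule markers (53410 FPKM, against at most 38820 FPKM elsewhere). A single gene, Kap, makes up most of that sum in every group, so the sum does not describe the markers as a set.

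Of the 63 members, 22 averaged 0.5 FPKM or more across the 14 libraries and were tested, 26 were below that level with reads in at least 1 library, and 15 were listed at 0 in all libraries. Clade A, the secreted relatives of alpha-1-antitrypsin, has 25 members, of which 9 were tested. Clade B, the intracellular serpins, has 27 members, of which 5 were tested. The single antithrombin gene of clade C, 2 of 3 members of clade E, both members of clade F, the C1 inhibitor of clade G, the collagen chaperone of clade H and 1 of 2 neuroserpin-like members of clade I were tested too. The heparin cofactor II gene Serpind1, the only member of clade D, was not. The clustering of these genes on the chromosomes was close: 24 of 25 clade A genes lie on chromosome 12 between 103614786 and 104414329, 15 of 27 clade B genes on chromosome 13 between 32842092 and 34002794 and the other 12 on chromosome 1 (build mm10).

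Summed over all 63 members, the family reached 480.8 to 686 FPKM in cKO cisplatin kidneys, 656 to 890.1 FPKM in WT cisplatin kidneys, 444 to 535 FPKM in untreated cKO kidneys and 565 to 618 FPKM in untreated WT kidneys. The ranges of the cisplatin groups overlapped, and the WT cisplatin libraries lay above all untreated ones. A single gene, Serpinf2, made up 31.6% ± 5.43 of the family sum in cKO cisplatin kidneys and 14.5% ± 3.79 in WT cisplatin kidneys (SD, n = 4 each), against 52.25% ± 11.8 in untreated cKO and 46.0% ± 4.10 in untreated WT kidneys (SD, n = 3 each). Serpinh1 made up 8.63% ± 2.62 in cKO cisplatin and 16.06% ± 4.71 in WT cisplatin kidneys, and Serpinb6a 5.135% ± 1.54 in cKO cisplatin and 10.5% ± 1.545 in WT cisplatin kidneys. These shares are descriptions with no test.

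**Figure D1:**
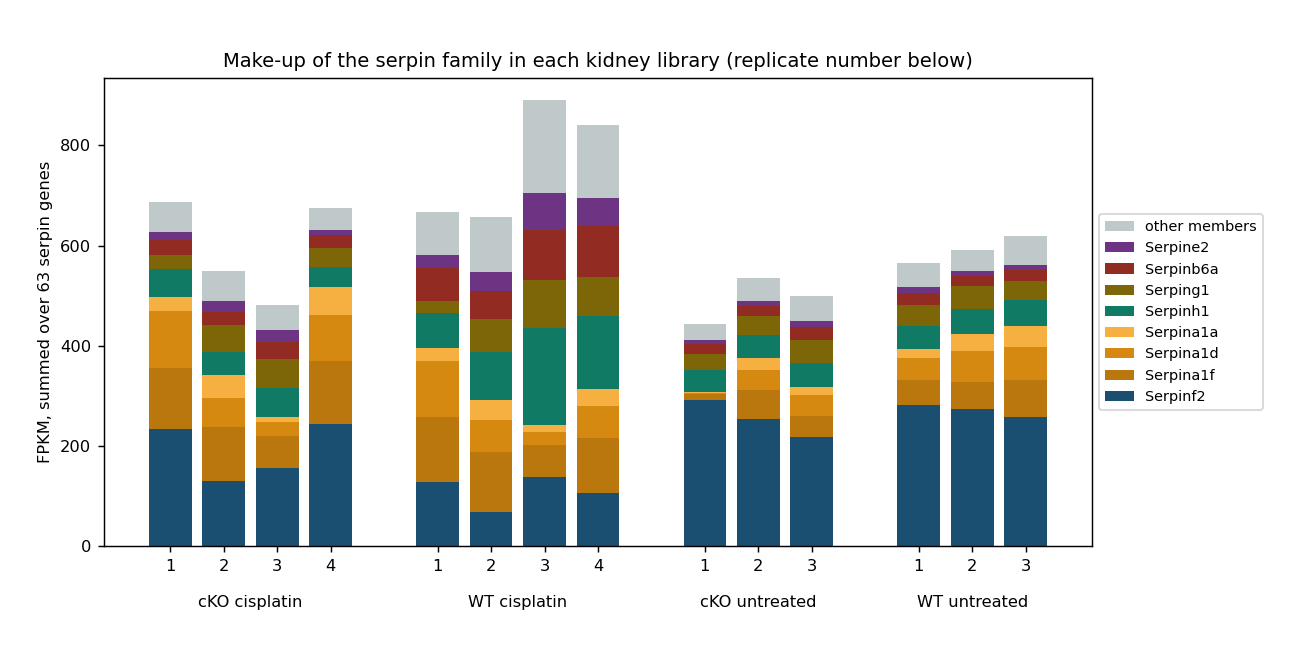
Stacked bars give the FPKM of the serpin genes in each of the 14 kidney libraries, with the 8 largest contributors in colour and the other members in grey. The dark blue block of Serpinf2 is between 130.5 and 243 FPKM in cKO cisplatin kidneys and between 68.7 and 138.6 FPKM in WT cisplatin kidneys, against 217.9 to 291.5 FPKM in untreated kidneys.

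Cisplatin against no drug in WT kidneys asks what the drug did to the family where Ripk4 was intact. 10 of the 22 tested members rose and 2 fell. The 10 include Serpina7, which passed the filter on low values through the WT cisplatin group alone, so that its call was favoured. Over all 15193 genes tested, 22.3% rose and 12.1% fell. The median difference was 0.79 over the 22 members and 0.10 over all genes. Of all called genes 64.9% had risen, against 51.8% with median-of-ratios scaling, which moved the median of all genes to about 0, and 50.5% with quantile normalization. Under both of these the same 12 members were called, 10 of them higher. Among the risers were Serpina10, Serpina3n, Serpine2, Serpinb9, Serpinb6a, Serpina7, Serpinh1, Serpinb6b and Serpinb1a, and the genes that fell were Serpinf2 and Serpinc1.

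In cKO kidneys the same comparison called 0 of 22 members. At an unadjusted p under 0.05 there were 7. Over all genes 0% rose and 0.0197% fell, which is 3 genes. That count was 286 (59.8% of them higher) without cKO cisplatin replicate 4, 32 without cKO untreated replicate 3, 12 without WT cisplatin replicate 1 and 0 to 4 without any other single library. The median difference was 0.17 over the members and 0.02 over all genes. With limma's array weights, which let noisy libraries count for less, 3 members passed (Serpina3n, Serpinb6a and Serpine2, all higher after cisplatin), beside 874 of all 15193 genes, of which 63.6% were higher.

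After cisplatin, cKO kidneys had 11 of 22 members lower and 1 higher than WT kidneys. The 11 include Serpina7, whose call was favoured by the filter here too. Over all genes, 18.1% fell and 8.77% rose, and the median difference was −0.58 over the members and −0.11 over all genes. Of all called genes 32.6% were higher in cKO, against 47.35% with median-of-ratios scaling, which called 10 members lower and 2 higher, and 48.9% with quantile normalization, which called 10 lower and 1 higher. Among the genes that fell were Serpina10, Serpinb9, Serpina3n, Serpina7, Serpinb6a, Serpine2, Serpinh1, Serpinb6b, Serpina3g and Serpinb1a. Serpinf2 rose. The WT cisplatin libraries enter both this comparison and the WT response, so the values of the members are given side by side below and are not independent.

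Without drug, 0 of 22 members were called between cKO and WT kidneys. At an unadjusted limma p under 0.05 there was 1, Serpina1b, lower in cKO (−0.75 ± 0.26). Over all genes 0% rose and 0% fell. A test of whether cKO and WT responded differently to cisplatin, as the cKO response less the WT one, called 4 members, Serpina10, Serpina7, Serpinb6a and Serpinb9, all with the smaller response in cKO. Serpina7 passed the filter on low values through the WT cisplatin group alone, which favoured its call. The count was 1 without WT untreated replicate 2 or 3 or cKO untreated replicate 3, and 9 without WT cisplatin replicate 1, and the other 3 calls were each lost in 5 to 10 of 23 alternatives. Over all genes 2.65% fell and 1.41% rose in that test. The median was −0.62 over the members and −0.08 over all genes.

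**Figure D2:**
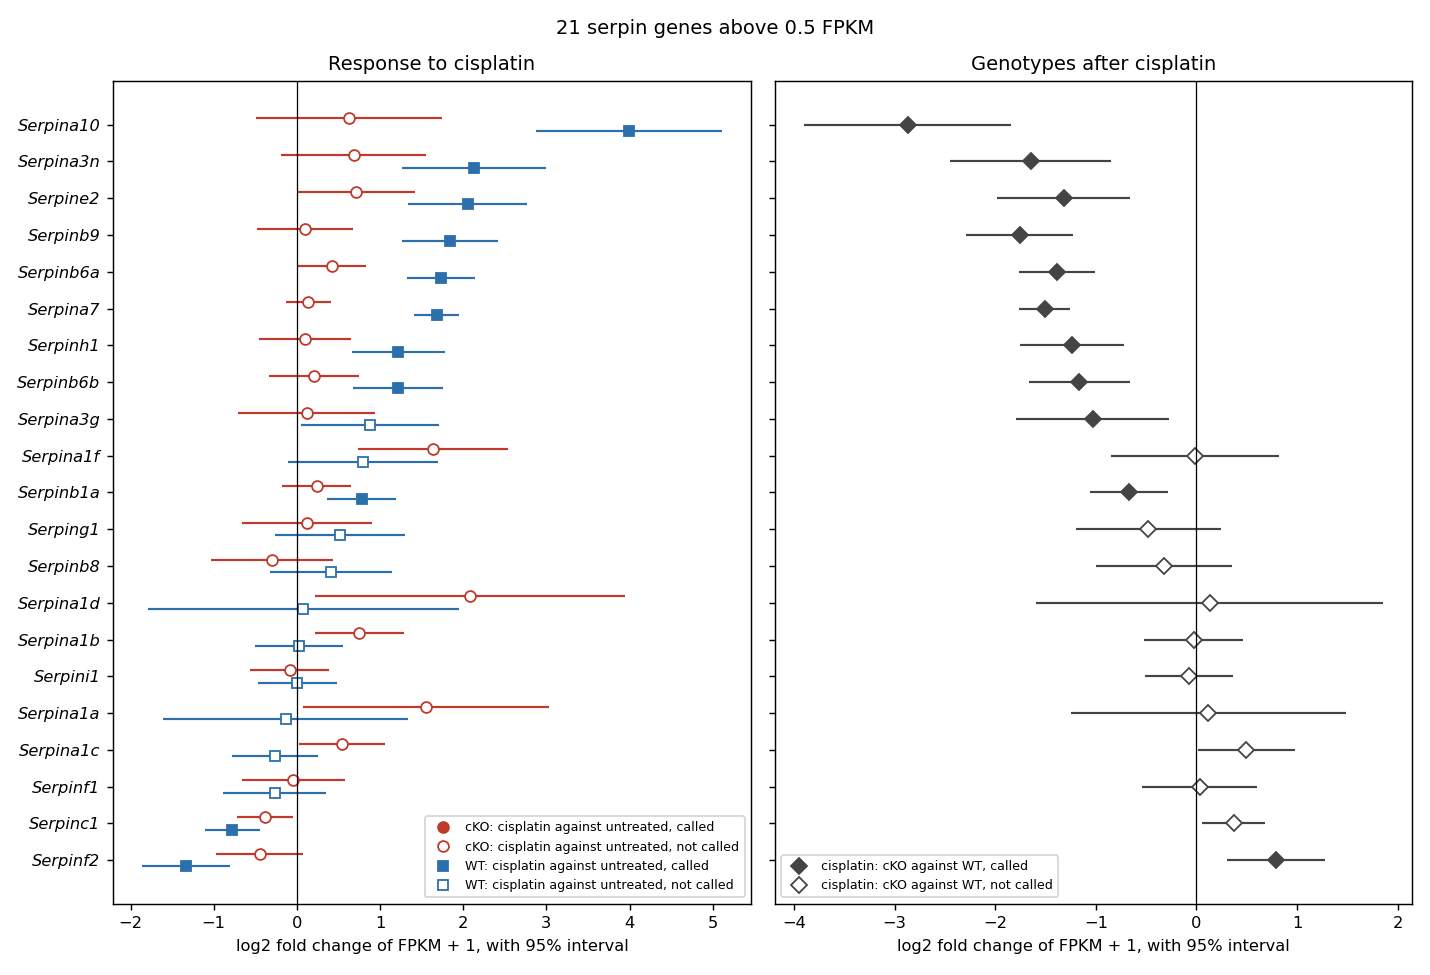
The left panel gives the log2 difference of FPKM + 1 after cisplatin in cKO (red circles) and WT (blue squares) kidneys for 21 tested members, and the right panel gives cKO against WT kidneys after cisplatin, with 95% intervals as lines and filled symbols for called genes. Serpina10 is the farthest from 0 on both sides, at 3.995 in the WT response and −2.87 between genotypes, and all red symbols are open.

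Alpha-1-antitrypsin, the classic plasma inhibitor of neutrophil elastase, has several copies in mice, here Serpina1a to Serpina1e. Serpina1f shares the name and is left out of the sum of copies below. Serpina1f (ENSMUSG00000021081, chromosome 12, 103688044 to 103695529, minus strand), Serpina1d (ENSMUSG00000071177, chromosome 12, 103763594 to 103773592, minus strand), Serpina1a (ENSMUSG00000066366, chromosome 12, 103853589 to 103863562, minus strand), Serpina1b (ENSMUSG00000071178, chromosome 12, 103728156 to 103830373, minus strand) and Serpina1c (ENSMUSG00000079015, chromosome 12, 103894926 to 103904887, minus strand) were tested, and Serpina1e stayed below 0.5 FPKM in every library. Copies a to e are known as close paralogs, and how reads shared between them were counted is not given in the sources used here, so their single levels are uncertain, and the annotated span of Serpina1b contains Serpina1d. To show how alike the copies are just upstream of their starts, 75 bases of each are given here, from RefSeq (build GRCm38.p6, minus strand), with capitals for GTTAAT, the letters of a half-site for the HNF1 factors of liver and proximal tubule.
Serpina1a: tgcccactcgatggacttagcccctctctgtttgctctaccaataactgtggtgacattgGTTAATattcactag
Serpina1b: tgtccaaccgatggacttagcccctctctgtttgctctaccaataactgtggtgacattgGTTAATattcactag
Serpina1c: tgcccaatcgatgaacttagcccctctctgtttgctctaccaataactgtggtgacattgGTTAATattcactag
Serpina1d: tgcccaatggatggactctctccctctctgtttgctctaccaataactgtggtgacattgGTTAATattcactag
Serpina1e: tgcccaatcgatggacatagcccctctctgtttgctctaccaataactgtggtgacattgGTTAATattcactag
The RefSeq start of Serpina1b lies inside the longer span that the expression table gives it. These stretches lie at chr12:103863626-103863700, chr12:103738201-103738275, chr12:103904963-103905037, chr12:103773635-103773709 and chr12:103956961-103957035. Any pair of them shares 68 to 73 of the 75 bases, and 65 positions are the same in all of them. GTTAAT starts 16 to 78 bases before the RefSeq gene start. The 300-base RefSeq window of Serpina1f, from 250 bases before its start to 50 after, does not hold these letters on either strand. They occur in 7.10% of all 32851 such windows and in those of 11 of the 53 members that have one. Those 11 include the alike Serpina1a to Serpina1e. The 53 members have 62 windows, so the share of windows and the count of members are unlike measures. A match of letters is a description and not a binding site, and these upstream bases do not bear on how reads were divided.

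With all libraries, none of the 5 tested Serpina1 genes was called in any comparison. Serpina1f was at 121, 106, 62.2 and 125 FPKM in cKO cisplatin kidneys, 129, 118, 62.6 and 109 FPKM in WT cisplatin kidneys, 12.7, 58.2 and 41.7 FPKM in untreated cKO kidneys and 49.6, 53.5 and 72.8 FPKM in untreated WT kidneys. Within cKO all 4 cisplatin libraries lay above all 3 untreated ones (1.63 ± 0.42, limma adjusted p = 0.138), while in WT the groups overlapped (0.79 ± 0.42, adjusted p = 0.160). The WT value passed when cKO untreated replicate 1 was left out (0.79, adjusted p = 0.0461).

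Serpina1d was at 114, 58.7, 29.0 and 92.6 FPKM in cKO cisplatin kidneys, 111, 64.6, 26.4 and 65.3 FPKM in WT cisplatin kidneys, 1.11, 40.4 and 42.6 FPKM in untreated cKO kidneys and 43.1, 61.6 and 67.3 FPKM in untreated WT kidneys. The spread within groups was wide. cKO untreated replicate 1 was far below every other library for this gene. The interval of the genotype difference after cisplatin ran from −1.60 to 1.86 and includes large differences in either direction.

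Serpina1a was at 28.2, 46.5, 9.45 and 55.4 FPKM in cKO cisplatin kidneys, 26.4, 40.0, 14.1 and 34.0 FPKM in WT cisplatin kidneys, 1.94, 22.5 and 14.7 FPKM in untreated cKO kidneys and 17.7, 34.7 and 41.5 FPKM in untreated WT kidneys. Serpina1b was at 19.6, 16.9, 10.8 and 17.4 FPKM in cKO cisplatin kidneys, 14.8, 19.8, 12.5 and 18.6 FPKM in WT cisplatin kidneys, 6.71, 10.8 and 9.98 FPKM in untreated cKO kidneys and 12.4, 13.6 and 23.4 FPKM in untreated WT kidneys. For both genes, replicate 3 was the lowest library in each cisplatin group and replicate 1 in the untreated cKO group, and replicates of different groups are not paired. Serpina1c ranged from 0 to 1.60 FPKM over the 14 libraries, and without cKO cisplatin replicate 3 it passed as higher in cKO than in WT cisplatin kidneys (0.69, adjusted p = 0.0319).

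Since reads may be split among copies, their sum is the safer level. Serpina1a to Serpina1e together came to 125.8 ± 54.4 FPKM in cKO cisplatin kidneys and 112.5 ± 42.3 FPKM in WT cisplatin kidneys (SD, n = 4 each), against 50.8 ± 35.6 FPKM in untreated cKO and 105.9 ± 30.05 FPKM in untreated WT kidneys (SD, n = 3 each). The untreated cKO sum was 9.93 FPKM in replicate 1 and 74.7 and 67.8 FPKM in the other libraries of that group. The first lowered that mean, and the others lay at the low end of the untreated WT sums (73.8, 110.7 and 133 FPKM). For Serpina1b and Serpina1d every untreated cKO library lay below every untreated WT one, with neither called, while for the a, c and e copies these groups overlapped. With 3 libraries in each group such a gap can arise by chance. The share of all genes with such a gap was not counted, so no lower level in untreated cKO is claimed. The 10 hepatocyte markers summed to 43.5 to 115.5 FPKM in cKO cisplatin, 35.1 to 105 FPKM in WT cisplatin, 113.1 to 129.6 FPKM in untreated cKO and 77.8 to 151 FPKM in untreated WT libraries. Of the 6 tested, Ttr and Alb fell with cisplatin in WT (−2.02 and −1.28) and were higher in cKO than in WT after cisplatin (1.27 and 1.27), and Fabp1 rose in WT (1.87). Fabp1 averaged 4.25 ± 5.08 FPKM in WT cisplatin kidneys (SD, n = 4) and at most 0.556 FPKM in the other groups. It passed the filter on low values through the WT cisplatin group, which favoured its call. Ahsg was at 0 in every library of all groups but WT cisplatin, and the part of these genes in the Serpina1 levels was not tested.

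**Figure D3:**
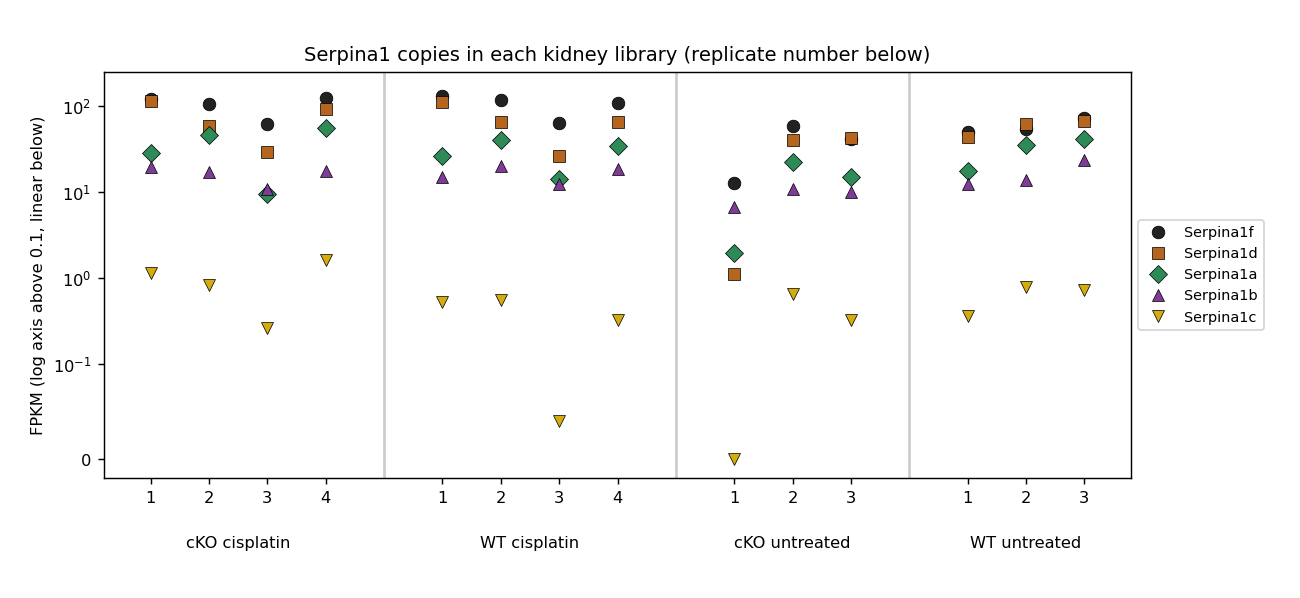
FPKM of the Serpina1 genes f, d, a, b and c in each library, on a log axis above 0.1 FPKM and a linear one below. In cKO untreated replicate 1 the d copy is at 1.11 FPKM and the c copy at 0, below all other libraries.

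Of the other 4 tested clade A genes, Serpina10, Serpina3n and Serpina7 rose with cisplatin in WT kidneys and all 4 were lower in cKO than in WT kidneys after cisplatin. Serpina10 (ENSMUSG00000061947, chromosome 12, 103614786 to 103631444, minus strand) encodes the protein Z-dependent inhibitor, which blocks clotting factor Xa. It was at 6.22, 2.07, 3.23 and 0.322 FPKM in cKO cisplatin kidneys, 20.7, 13.2, 45.1 and 24.1 FPKM in WT cisplatin kidneys, 1.76, 0.400 and 1.63 FPKM in untreated cKO kidneys and 1.43, 0.102 and 0.343 FPKM in untreated WT kidneys. Every WT cisplatin library lay above every other library. With cisplatin it rose in WT by 3.995 ± 0.52 (limma adjusted p = 0.000102), the largest difference among the members, and the cKO response of 0.62 ± 0.52 was not called (adjusted p = 0.710). After cisplatin it was lower in cKO than in WT (−2.87 ± 0.48, adjusted p = 0.00115). The responses themselves differed (−3.37 ± 0.73, adjusted p = 0.0262), a call lost in 7 of 23 alternatives (largest adjusted p 0.0811). It was lost without WT untreated replicate 2 (−3.13) or 3 (−3.28) and without cKO untreated replicate 1 (−3.20) or 3 (−3.23).

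Serpina3n (ENSMUSG00000021091, chromosome 12, 104406729 to 104414329, plus strand), an antichymotrypsin-like secreted inhibitor that in mice blocks granzyme B, was at 1.37, 2.74, 1.78 and 0.151 FPKM in cKO cisplatin kidneys, 2.50, 7.02, 9.58 and 8.29 FPKM in WT cisplatin kidneys, 0.164, 0.314 and 0.952 FPKM in untreated cKO kidneys and 0.8292, 0.798 and 0.384 FPKM in untreated WT kidneys. WT cisplatin replicate 1 overlapped the cKO cisplatin range. The gene rose in WT by 2.13 ± 0.40 (limma adjusted p = 0.00133) and was lower in cKO after cisplatin (−1.65 ± 0.37, adjusted p = 0.00651). Its difference of responses, −1.45 ± 0.57, was not called (adjusted p = 0.162) but passed without WT cisplatin replicate 1 (−1.80, adjusted p = 0.0262). Serpina3g (ENSMUSG00000041481, chromosome 12, 104236245 to 104241939, plus strand), an intracellular mouse inhibitor of cysteine cathepsins, was at 3.70, 2.08, 2.32 and 1.76 FPKM in cKO cisplatin kidneys, 2.83, 6.97, 12.1 and 4.81 FPKM in WT cisplatin kidneys, 1.60, 1.30 and 4.15 FPKM in untreated cKO kidneys and 4.23, 1.92 and 2.55 FPKM in untreated WT kidneys. It was lower in cKO than in WT cisplatin kidneys (−1.03 ± 0.35, adjusted p = 0.0458), with overlapping libraries and a call that was lost in 15 of 23 alternatives. Among these was leaving out any of WT untreated replicates 2 and 3, cKO untreated replicate 1, WT cisplatin replicates 2, 3 and 4 or cKO cisplatin replicates 2, 3 and 4 (−0.73 without WT cisplatin replicate 3 to −1.12 without replicate 4). The WT response of Serpina3g was not called (0.88 ± 0.38, adjusted p = 0.0932) but passed without WT cisplatin replicate 1 (1.16, adjusted p = 0.0191). Serpina3 genes are also close copies of one another, so that reads may be divided among them.

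Serpina7 (ENSMUSG00000031271, chromosome X, 139079257 to 139085236, minus strand) encodes thyroxine-binding globulin, a carrier of thyroid hormone that inhibits no protease. It was at 0.195, 0.180, 0.0961 and 0.0625 FPKM in cKO cisplatin kidneys, 1.83, 2.84, 2.53 and 1.81 FPKM in WT cisplatin kidneys, 0.0787, 0 and 0.0171 FPKM in untreated cKO kidneys and 0.0100, 0 and 0.00847 FPKM in untreated WT kidneys. In whole reads, recovered from the FPKM steps with a gene length of 1535 bases, this is 11, 14, 7 and 4 in cKO cisplatin libraries, 124, 178, 211 and 144 in WT cisplatin libraries, 5, 0 and 1 in untreated cKO libraries and 1, 0 and 1 in untreated WT libraries. The gene was thus near the counting floor without drug and present in every WT cisplatin library. The rise in WT was 1.68 ± 0.13 (limma adjusted p = 5.69e-06), the genotype difference after cisplatin −1.51 ± 0.12 (adjusted p = 7.87e-05) and the difference of the responses −1.55 ± 0.18 (adjusted p = 0.0101), and all of these calls held in the 22 alternatives that kept the gene. Because the gene passed the filter through the WT cisplatin group alone, its level there had to be higher than elsewhere, and these calls are no independent support. Its RefSeq window (chrX:139085187-139085486, build GRCm38.p6, minus strand) also holds GTTAAT, in capitals, 57 bases before the start, and is shown because, with Serpinb8, it is one of the 2 tested members outside the chromosome 12 cluster that share those letters with the Serpina1 copies.
Serpina7: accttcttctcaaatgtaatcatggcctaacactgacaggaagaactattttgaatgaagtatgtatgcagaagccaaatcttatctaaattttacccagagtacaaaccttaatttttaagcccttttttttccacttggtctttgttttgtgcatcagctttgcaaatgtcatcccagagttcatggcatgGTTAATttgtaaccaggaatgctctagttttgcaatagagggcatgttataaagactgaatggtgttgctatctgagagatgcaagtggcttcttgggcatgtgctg
Of the tested members whose windows hold these letters, Serpina7 was called, and the Serpina1 copies a to d and Serpinb8 were not. Among 8 genes of hormone carriage and angiotensinogen set beside the family, 1 rose and 4 fell with cisplatin in WT, and 3 were higher and 0 lower in cKO than in WT after cisplatin. Agt, angiotensinogen, a serpin by fold whose symbol falls outside the rule, rose in WT by 1.30 (adjusted p = 0.000188), and Thrb, a thyroid hormone receptor, fell by 0.51 (adjusted p = 0.00274).

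**Figure D4:**
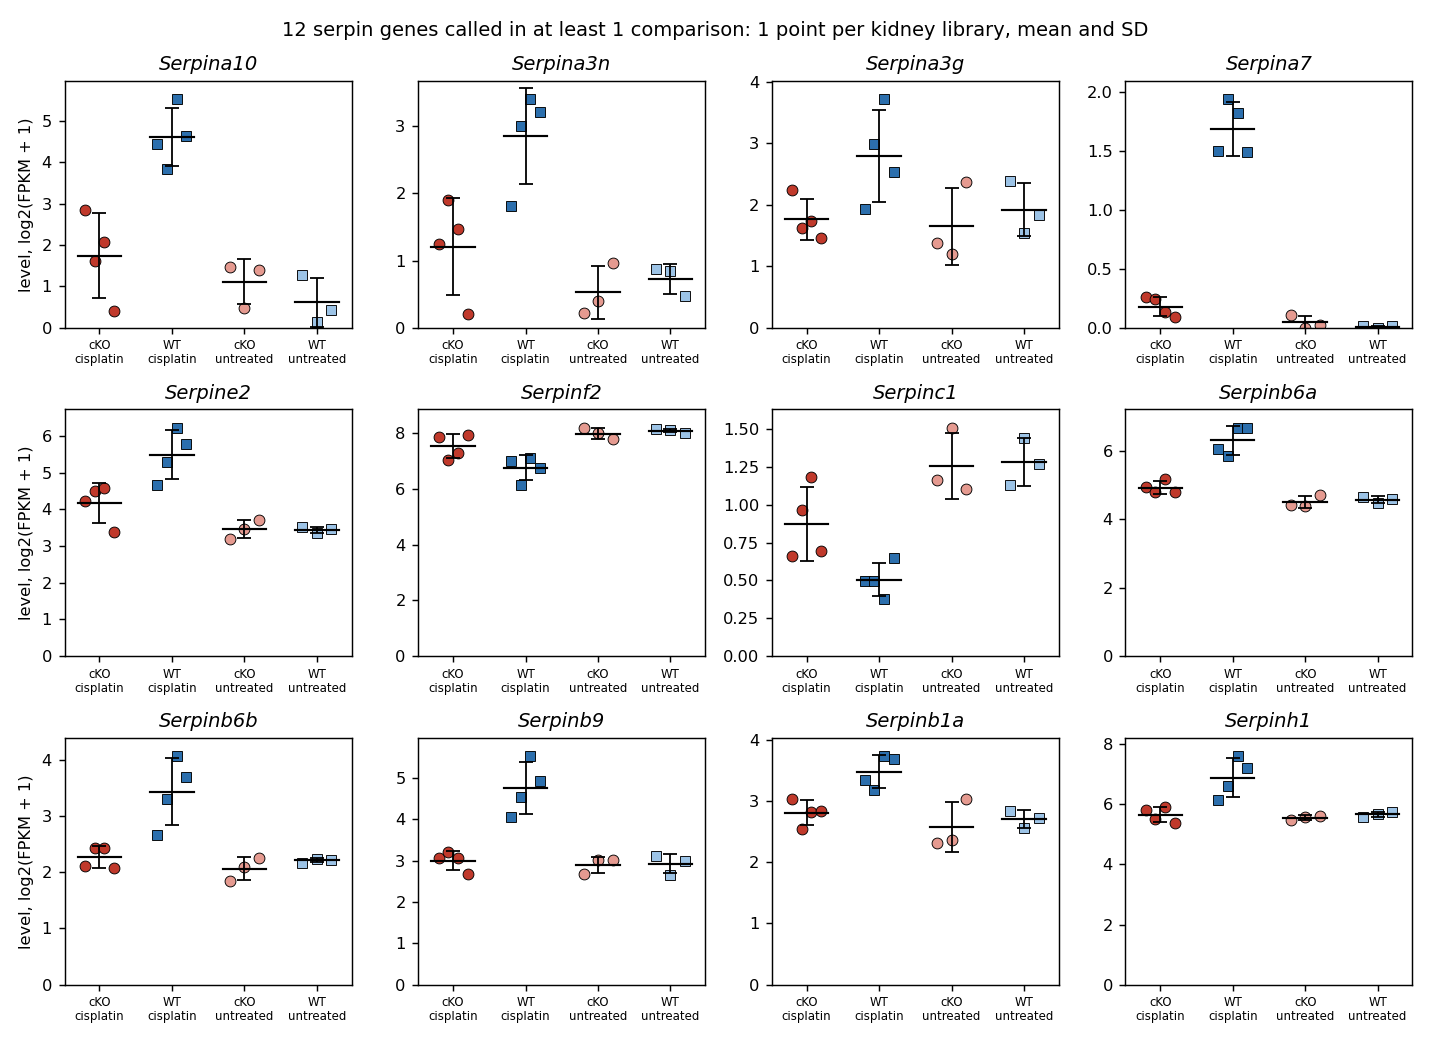
Each panel gives 1 of 12 members called in at least 1 comparison as log2(FPKM + 1), with 1 point per library, the mean as a bar and the SD as an error line, for cKO cisplatin, WT cisplatin, untreated cKO and untreated WT kidneys. WT cisplatin (dark blue squares) is the highest group in all panels but Serpinf2 and Serpinc1, where it is the lowest.

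Clot lysis is driven by plasmin, which urokinase (Plau) and tissue plasminogen activator (Plat) cut from plasminogen, and clade E and F serpins are its brakes. Serpine2 (ENSMUSG00000026249, chromosome 1, 79794197 to 79861180, minus strand) encodes protease nexin 1, which blocks thrombin and urokinase at cell surfaces. It was at 17.7, 21.8, 23.1 and 9.41 FPKM in cKO cisplatin kidneys, 24.6, 37.9, 74.0 and 54.5 FPKM in WT cisplatin kidneys, 8.22, 10.1 and 12.1 FPKM in untreated cKO kidneys and 10.4, 9.30 and 9.96 FPKM in untreated WT kidneys. In cKO, 3 of 4 cisplatin libraries lay above the untreated ones and replicate 4 among them (0.71 ± 0.33, limma adjusted p = 0.434). In WT all treated libraries lay above the untreated ones (2.05 ± 0.33, adjusted p = 0.000446). Between genotypes after cisplatin it was lower in cKO (−1.32 ± 0.31, adjusted p = 0.00746), and the difference of responses, −1.34 ± 0.47, was not called (adjusted p = 0.122). Without WT cisplatin replicate 1 this difference passed (−1.61, adjusted p = 0.0210).

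Serpinf2 (ENSMUSG00000038224, chromosome 11, 75431732 to 75439591, minus strand) encodes alpha-2-antiplasmin, the direct inhibitor of plasmin, and had the highest mean of the family, 199 FPKM over the 14 libraries. It was at 234, 130.5, 157 and 243 FPKM in cKO cisplatin kidneys, 128, 68.7, 139 and 106 FPKM in WT cisplatin kidneys, 292, 253 and 218 FPKM in untreated cKO kidneys and 282, 274 and 258 FPKM in untreated WT kidneys. The WT cisplatin libraries lay below all untreated ones. Serpinf2 fell in WT (−1.34 ± 0.24, limma adjusted p = 0.00106), and the cKO response of −0.45 ± 0.24 was not called (adjusted p = 0.516). After cisplatin it was higher in cKO than in WT (0.79 ± 0.23, adjusted p = 0.0212), with 3 cKO libraries above all WT ones and 1 cKO library inside the WT range. That call was lost in 5 of 23 alternatives, among them those without cKO cisplatin replicate 1 (0.67, adjusted p = 0.0583) and without replicate 4 (0.65, adjusted p = 0.0687). Proximal tubule markers moved alongside: 9 of 12 fell with cisplatin in WT and 9 were higher in cKO than in WT cisplatin kidneys. They summed to 22600 to 53410 FPKM in cKO cisplatin, 7114 to 16320 FPKM in WT cisplatin, 33870 to 38820 FPKM in untreated cKO and 31810 to 38580 FPKM in untreated WT libraries. Most of these sums was Kap, which averaged 30450 FPKM in cKO cisplatin, 8522 FPKM in WT cisplatin, 32780 FPKM in untreated cKO and 31210 FPKM in untreated WT kidneys. Of 9 thick limb and distal tubule markers, 1 rose and 5 fell in WT and 5 were higher in cKO, and of 7 collecting duct markers 1 rose and 1 fell in WT and 2 were higher in cKO. In whole kidney, fewer cells of a type and less RNA per cell cannot be told apart, and the part of these markers in the Serpinf2 result was not tested. Its neighbour Serpinf1 (ENSMUSG00000000753, chromosome 11, 75409769 to 75422701, minus strand), pigment epithelium-derived factor, was not called, at 2.25 ± 0.848 FPKM in cKO cisplatin and 2.19 ± 0.974 FPKM in WT cisplatin kidneys (SD, n = 4 each).

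Of the other genes of plasminogen activation, 4 of 8 tested rose and 1 fell with cisplatin in WT, and 4 fell and 0 rose in cKO against WT cisplatin kidneys. The receptor of urokinase Plaur rose by 3.02 in WT (limma adjusted p = 1.26e-05) and was lower in cKO (−2.38, adjusted p = 0.000105). Anxa2 and S100a10, which form a plasminogen receptor, rose by 2.45 and 2.57 in WT and were lower in cKO (−2.18 and −1.77). The list summed to 452 to 676 FPKM in cKO cisplatin libraries and 1319 to 1930 FPKM in WT cisplatin libraries, ranges that do not overlap. Much of that gap came from S100a10 and Anxa2 themselves. They averaged 189 and 52.7 FPKM in cKO cisplatin and 627 and 253 FPKM in WT cisplatin kidneys. Plat was lower in cKO (−1.46, adjusted p = 0.0404).

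The clotting and complement serpins were less uniform. Serpinc1 (ENSMUSG00000026715, chromosome 1, 160978585 to 161005863, plus strand) encodes antithrombin, the heparin-dependent inhibitor of thrombin and factor Xa, and was low in kidney. It was at 0.580, 0.953, 1.27 and 0.615 FPKM in cKO cisplatin kidneys, 0.412, 0.413, 0.300 and 0.568 FPKM in WT cisplatin kidneys, 1.24, 1.84 and 1.15 FPKM in untreated cKO kidneys and 1.19, 1.72 and 1.41 FPKM in untreated WT kidneys. It fell in WT by 0.77 (SE 0.15, limma adjusted p = 0.00187). All 4 cKO cisplatin libraries lay above all 4 WT ones, and the difference of 0.37 ± 0.14 missed the threshold (adjusted p = 0.0725). It passed with a pseudocount of 0.1 (0.83, adjusted p = 0.0418), with median-of-ratios scaling and with array weights. The gene overlaps Zbtb37 on the opposite strand, and the strand setting of the counting is not given in the sources used here.

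Serping1 (ENSMUSG00000023224, chromosome 2, 84765387 to 84775444, minus strand), the C1 inhibitor, restrains the first proteases of complement and plasma kallikrein. It was at 28.0, 53.4, 56.4 and 37.3 FPKM in cKO cisplatin kidneys, 25.1, 65.2, 95.3 and 77.8 FPKM in WT cisplatin kidneys, 32.3, 38.5 and 46.4 FPKM in untreated cKO kidneys and 43.0, 44.2 and 36.1 FPKM in untreated WT kidneys. Replicate 1 was the lowest library of each of these 4 groups but untreated WT, and 3 of 4 WT cisplatin libraries were above all others. With all libraries nothing was called (0.52 ± 0.36 in WT and −0.48 ± 0.33 for cKO against WT cisplatin, limma adjusted p = 0.292 and 0.314). Without WT cisplatin replicate 1, Serping1 passed as higher after cisplatin in WT (0.92, adjusted p = 0.00754) and as lower in cKO against WT cisplatin (−0.88, adjusted p = 0.00753). Its target genes C1ra and C1s1, the 2 tested of 6 complement proteases listed, were not called in either comparison.

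Among 10 tested coagulation genes, 4 rose and 3 fell with cisplatin in WT, and 1 was higher and 4 lower in cKO than in WT after cisplatin. Kng1, counted as rising in WT and as lower in cKO, passed the filter on low values through the WT cisplatin group, which favoured its calls. F3, tissue factor, which starts clotting, rose by 1.57 in WT (limma adjusted p = 6.18e-05) and was lower in cKO (−1.31, adjusted p = 0.000295). Proc, protein C, was higher in cKO (0.63, adjusted p = 0.01997).

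The tested intracellular serpins of the chromosome 13 cluster all rose with cisplatin in WT and all were lower in cKO than in WT after cisplatin. Serpinb6a (ENSMUSG00000060147, chromosome 13, 33917918 to 34002794, minus strand), which blocks cathepsin G, was the most abundant of them. It was at 29.7, 26.9, 35.5 and 26.7 FPKM in cKO cisplatin kidneys, 65.6, 56.7, 101.2 and 102 FPKM in WT cisplatin kidneys, 20.4, 20.1 and 25.3 FPKM in untreated cKO kidneys and 24.3, 21.4 and 23.3 FPKM in untreated WT kidneys. The groups ordered cleanly, with WT cisplatin above cKO cisplatin and cKO cisplatin above both untreated groups. The rise in WT was 1.73 ± 0.19 (limma adjusted p = 3.93e-05), the value in cKO 0.42 ± 0.19 (adjusted p = 0.412), and the genotype difference after cisplatin −1.39 ± 0.17 (adjusted p = 0.000272). The responses differed (−1.31 ± 0.27, adjusted p = 0.0204), a call lost in 5 of 23 alternatives (largest adjusted p 0.0719). Among them were those without WT untreated replicate 2 (−1.265) or 3 (−1.325) and without cKO untreated replicate 3 (−1.21).

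The gene overlaps Ripk1, a kinase of the same family as Ripk4, and Nqo2 on the opposite strand, so reads of these genes could be mixed if the counting ignored strand. Ripk1 was at 5.76 to 9.90 FPKM in cKO cisplatin, 6.52 to 11.4 FPKM in WT cisplatin, 6.51 to 7.98 FPKM in untreated cKO and 7.42 to 8.30 FPKM in untreated WT kidneys, far below Serpinb6a, and was not called in any comparison. The RefSeq window of Serpinb6a (chr13:34002745-34003044, build GRCm38.p6, minus strand) is shown because the gene is the most abundant of those whose responses differed, with capitals for TTCNNGAA, the letters of paired heat shock element units.
Serpinb6a: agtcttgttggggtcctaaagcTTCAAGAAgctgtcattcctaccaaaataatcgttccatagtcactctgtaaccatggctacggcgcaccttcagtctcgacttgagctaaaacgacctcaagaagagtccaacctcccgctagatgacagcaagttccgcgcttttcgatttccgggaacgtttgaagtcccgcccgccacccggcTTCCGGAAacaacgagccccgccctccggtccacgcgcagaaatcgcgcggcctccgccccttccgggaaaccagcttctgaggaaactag
These letters were found in 8.52% of all windows and, among the 18 tested members with a window, only in that of Serpinb6a. The reverse arrangement, GAANNTTC, was found in 7.86% of all windows and only in that of Serpini1 among those 18.

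Serpinb9 (ENSMUSG00000045827, chromosome 13, 33003250 to 33017957, plus strand) encodes the inhibitor of granzyme B, with which killer cells and their targets protect themselves. It was at 7.29, 8.31, 7.38 and 5.35 FPKM in cKO cisplatin kidneys, 15.6, 22.3, 45.0 and 29.3 FPKM in WT cisplatin kidneys, 5.40, 7.13 and 7.03 FPKM in untreated cKO kidneys and 7.63, 5.33 and 6.97 FPKM in untreated WT kidneys. No library outside the WT cisplatin group reached the lowest of that group. Serpinb9 rose in WT by 1.84 ± 0.27 (limma adjusted p = 0.000224), against 0.10 ± 0.27 in cKO (adjusted p = 0.938), and was lower in cKO after cisplatin (−1.76 ± 0.25, adjusted p = 0.000434). The responses differed (−1.74 ± 0.38, adjusted p = 0.0268), a call lost in 10 of 23 alternatives (largest adjusted p 0.0832). Leaving out any of 8 libraries ended it, at −1.61 to −1.83: WT untreated replicates 1, 2 and 3, cKO untreated replicates 2 and 3, WT cisplatin replicate 4 and cKO cisplatin replicates 3 and 4. Its RefSeq window (chr13:33004291-33004590, build GRCm38.p6, plus strand) is shown with capitals for a pair of GAAA units with 2 bases between them, the letters of an interferon-stimulated response element, found here on the reverse strand 46 bases before the RefSeq start, which lies inside the span of the expression table.
Serpinb9: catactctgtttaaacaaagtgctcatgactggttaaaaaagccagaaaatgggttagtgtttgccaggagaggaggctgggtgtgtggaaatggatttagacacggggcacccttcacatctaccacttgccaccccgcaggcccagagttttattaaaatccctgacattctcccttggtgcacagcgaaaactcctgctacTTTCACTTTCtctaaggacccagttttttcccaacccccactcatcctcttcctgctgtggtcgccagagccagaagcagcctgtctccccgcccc
These letters were found in 3.44% of all windows, and among the 18 tested members with a window in those of Serpinb9 and Serpinb6a.

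Serpinb6b (ENSMUSG00000042842, chromosome 13, 32965209 to 32979067, plus strand) was at 3.33, 4.40, 4.42 and 3.22 FPKM in cKO cisplatin kidneys, 5.34, 8.84, 15.7 and 11.9 FPKM in WT cisplatin kidneys, 2.59, 3.25 and 3.78 FPKM in untreated cKO kidneys and 3.51, 3.73 and 3.65 FPKM in untreated WT kidneys. It rose in WT by 1.22 ± 0.25 (limma adjusted p = 0.00234) and was lower in cKO (−1.16 ± 0.23, adjusted p = 0.00322). The difference of its responses (−1.02 ± 0.36, adjusted p = 0.123) was called without WT cisplatin replicate 1 (−1.27, adjusted p = 0.00826). Serpinb1a (ENSMUSG00000044734, chromosome 13, 32842092 to 32851185, minus strand), an inhibitor of neutrophil elastase, proteinase 3 and cathepsin G, was at 7.21, 4.87, 6.11 and 6.12 FPKM in cKO cisplatin kidneys, 9.11, 8.03, 12.3 and 11.9 FPKM in WT cisplatin kidneys, 4.002, 4.15 and 7.24 FPKM in untreated cKO kidneys and 6.16, 4.89 and 5.60 FPKM in untreated WT kidneys. Its changes were smaller, 0.78 ± 0.19 in WT (adjusted p = 0.00738) and −0.67 ± 0.18 between genotypes (adjusted p = 0.0152). The second of these was lost without WT cisplatin replicate 3 (−0.59, adjusted p = 0.0503). Serpinb8 (ENSMUSG00000026315, chromosome 1, 107590006 to 107610484, plus strand), a furin inhibitor in human cells and the single tested clade B gene of chromosome 1, was not called, at 5.27 ± 3.86 FPKM in cKO cisplatin and 6.03 ± 0.751 FPKM in WT cisplatin kidneys (SD, n = 4 each). Without cKO cisplatin replicate 2, which held 11.01 FPKM, it passed as lower in cKO (−0.69, adjusted p = 0.0380).

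Macrophage markers moved in both comparisons in which the intracellular serpins did. Of 10 tested macrophage markers, 6 rose with cisplatin in WT and 7 were lower in cKO than in WT after cisplatin, and the list summed to 66.8 to 89.1 FPKM in cKO cisplatin, 99.9 to 375 FPKM in WT cisplatin, 56.8 to 86.3 FPKM in untreated cKO and 76.9 to 91.1 FPKM in untreated WT libraries. Of 4 tested neutrophil markers, 1 rose in WT, near the 22.3% of all genes, and 4 were lower in cKO. Among these, Csf3r and Mmp9 passed the filter on low values through the WT cisplatin group, which favoured their calls. The same holds for the macrophage marker Itgam. The neutrophil list summed to 1.37 to 3.20 FPKM in cKO cisplatin and 2.71 to 13.7 FPKM in WT cisplatin libraries. Without drug it summed to 1.69 to 3.70 FPKM in cKO and 2.51 to 6.16 FPKM in WT libraries. Ngp and Camp were at 0 in every cKO library, treated and untreated. T and NK cell markers summed to 2.67 to 2.86 FPKM in cKO cisplatin and 1.85 to 7.496 FPKM in WT cisplatin libraries, and 0 of 4 tested were called in either comparison. The part of these cells in the serpin results was not tested. WT cisplatin replicate 3 had the highest macrophage sum and the highest Serpinb9, Serpinb6b and Serpinb1a, and replicate 4 the highest Serpinb6a. Within that group, replicate 1 was the lowest in the macrophage sum, Serpinb9 and Serpinb6b, and replicate 2 in Serpinb6a and Serpinb1a. Replicate 3 was also the highest and replicate 1 the lowest of that group in the sums of plasminogen activation, collagen, heat shock and TGF-beta genes. This was not so for every list, but the order is not particular to macrophage markers.

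Of the proteases that intracellular serpins can meet, 6 of 16 leukocyte granule and lysosomal proteases were tested, of which 3 rose and 0 fell with cisplatin in WT and 4 were lower and 0 higher in cKO after cisplatin. Ctsc, the cathepsin that activates granule proteases, rose by 1.59 in WT (limma adjusted p = 0.000114) and was lower in cKO (−1.42, adjusted p = 0.000372). Ctsb rose by 0.89 in WT and was lower in cKO (−0.71).

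Serpinh1 (ENSMUSG00000070436, chromosome 7, 99345376 to 99353239, minus strand) encodes Hsp47, a chaperone of the endoplasmic reticulum that binds procollagen and inhibits no protease. It was at 55.5, 45.1, 58.9 and 40.3 FPKM in cKO cisplatin kidneys, 70.3, 95.9, 193 and 146 FPKM in WT cisplatin kidneys, 43.4, 46.8 and 48.4 FPKM in untreated cKO kidneys and 46.5, 50.7 and 52.7 FPKM in untreated WT kidneys. WT cisplatin libraries lay above all others. The rise in WT was 1.22 ± 0.26 (limma adjusted p = 0.00274), and the level in cKO after cisplatin was lower than in WT (−1.23 ± 0.24, adjusted p = 0.00270). The cKO response was 0.10 ± 0.26 (adjusted p = 0.938), and the difference of the responses was not called (−1.12 ± 0.37, adjusted p = 0.0995) unless WT cisplatin replicate 1 was left out (−1.37, adjusted p = 0.0100).

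Of 20 collagens and collagen-modifying genes, 11 rose and 0 fell with cisplatin in WT, and 12 were lower and 0 higher in cKO than in WT after cisplatin. They included the prolyl hydroxylase P4ha2 (0.84 in WT and −0.67 between genotypes), the lysyl hydroxylase Plod3 (0.86 and −0.68) and the crosslinking enzyme Lox (1.23 and −1.18). In the heat shock response, 5 of 12 genes rose and 1 fell in WT, and 4 were lower in cKO after cisplatin, with the small chaperone Hspb1 at 3.33 in WT and −2.67 between genotypes. In TGF-beta signalling, which is known to raise collagen genes, 3 of 14 rose and 1 fell in WT, and 4 were lower in cKO. Over all genes 22.3% rose and 12.1% fell in WT, so the 3 rising genes are near the share of all genes. After cisplatin 18.1% of all genes were lower in cKO. Among the listed genes lower in cKO was the ligand Tgfb1 (1.26 in WT and −1.31 between genotypes). The part of this pathway in the Serpinh1 result was not tested. Fibroblast and mural cell markers gave 0 calls of 9 in either comparison, with sums of 55.3 to 111 FPKM in cKO cisplatin and 50.8 to 139 FPKM in WT cisplatin libraries.

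Protease inhibitors of other families gave a mixed picture. Of 18 tested, 8 rose and 5 fell with cisplatin in WT, and 4 were higher and 6 lower in cKO than in WT after cisplatin. Timp1, an inhibitor of matrix metalloproteinases, rose by 4.31 in WT and was lower in cKO (−3.09). Cstb, the cytosolic cathepsin inhibitor stefin B, rose by 2.10 and was lower in cKO (−1.54). Pzp, a broad protease trap of the macroglobulin family, went the other way, at −5.04 in WT and 2.67 between genotypes (limma adjusted p = 1.76e-05 and 0.00101). Of 11 tested serine proteases of epithelium, 2 rose and 3 fell in WT, and 3 were higher and 1 lower in cKO, the last being the matriptase gene St14 (1.64 in WT and −1.07 between genotypes). Over all genes 22.3% rose and 12.1% fell in WT, and 8.77% were higher and 18.1% lower in cKO after cisplatin. The 2 rising proteases are near the share of all genes.

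The other tested member, the neuroserpin gene Serpini1 (ENSMUSG00000027834, chromosome 3, 75557547 to 75643495, plus strand), an inhibitor of tissue plasminogen activator known from neurons, was not called, at 1.37 ± 0.532 FPKM in cKO cisplatin and 1.52 ± 0.658 FPKM in WT cisplatin kidneys (SD, n = 4 each). Of the 26 members below the filter, Serpinb9b was the one that passed 0.5 FPKM in any library. It is a mouse relative of Serpinb9, and it had 2, 1, 0 and 0 reads in cKO cisplatin libraries, 16, 23, 266 and 115 in WT cisplatin libraries, 0, 1 and 1 in untreated cKO libraries and 0, 0 and 0 in untreated WT libraries. With no filter it was not called (0.62 ± 0.21 in WT and −0.61 ± 0.20 for cKO against WT cisplatin, limma adjusted p = 0.0693 and 0.0662). Serpina3i and Serpinb2 were called with no filter. Serpina3i had 0, 0, 7 and 0 reads in cKO cisplatin libraries, 6, 7, 27 and 7 in WT cisplatin libraries, 0, 0 and 2 in untreated cKO libraries and 0, 0 and 0 in untreated WT libraries, and was higher after cisplatin in WT (0.21 ± 0.06, adjusted p = 0.0392). Serpinb2, an inhibitor of urokinase, was above 0 in 3 WT cisplatin libraries and listed at 0 in the other 11 libraries, and was called in WT (0.12 ± 0.03, adjusted p = 0.0253) and for cKO against WT cisplatin (−0.12 ± 0.03, adjusted p = 0.0247). At these counts no firm statement on either gene can be made. The other 25 members below the filter, these 2 included, stayed at or under 0.460 FPKM, among them Serpina6, the corticosteroid carrier, and Serpind1. The 15 members at 0 were Serpina11, Serpina5, Serpina3a, Serpina3j, Serpinb3a, Serpinb3b, Serpinb3c, Serpinb3d, Serpinb6d, Serpinb6e, Serpinb9c, Serpinb9d, Serpinb11, Serpinb13 and Serpini2.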

How the data were processed

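Kidney total RNA (Trizol, TruSeq libraries, per the labels' protocols) was, per the submitters' processing notes, mapped to build mm10 by HISAT2 (version 2.0.5). The counter, annotation and strand setting are not given in the sources used here. The authors deposited 1 FPKM value per gene and library. These were used as deposited, without rescaling, as log2(FPKM + 1), and only genes averaging 0.5 FPKM or more across the 14 libraries entered the tests (15193 of 49584). 1 line of the table was blank and 0 columns lacked a sample.

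Groups follow the labels' genotype and treatment. A single limma 3.58.1 model (R 4.3.3) with 4 group means and a mean-variance trend gave 5 comparisons. Two-sided p-values were adjusted by Benjamini-Hochberg across the tested genes, with a threshold of 0.05. The script was tested on simulated data. No libraries were identical (0 pairs).

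Depth and whole reads were recovered from FPKM steps. For Serpina7, Serpinb9b and Serpina3i the gene length was itself searched, and such counts cover counting error only. With gene lengths from GENCODE M21, 30.0 to 33.4% of genes above 0 in a library gave whole reads, within 0.02 reads. The members and lists were chosen with earlier results of these data known. All members enter the counts, and the values of 1 tested member are not reported here. Those called or with a group mean of at least 10 FPKM are given per library, and of each list up to 4 called genes with the smallest p were eligible to be named. C1ra, C1s1, Ripk1, Ahsg, Ngp and Camp were named outside that rule. Counts of called genes in the lists are small, were not tested as sets, and are to be read beside the shares called over all genes. Promoter windows are RefSeq's (GRCm38.p6) and were matched by symbol for 53 of 63 members. They were searched on both strands for heat shock (TTCNNGAA and the reverse arrangement GAANNTTC), HNF1 (GTTAAT), AP-1 (TGANTCA), SMAD (CAGACA) and interferon-stimulated motifs (a GAAA pair spaced by 2 bases), which can overlap. AP-1 letters were found in 7.81% of all windows and, of 18 tested members with a window, in Serpina1a to Serpina1d and Serpinb8. SMAD letters were found in 21.0% of all windows and, of those 18, in Serpina1d, Serpinf1 and Serpinh1. The coordinates of 59 of the 63 members, and of all 22 tested, were those of GENCODE M21. Alternatives covered the pseudocount, the filter, scaling, array weights, the groups in the model and each library left out.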

Additional observations from a re-analysis of the deposited data

Results flagged for a closer look

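The cisplatin responses of 4 members differed between the genotypes in limma's test of the difference of responses, cKO minus WT. Serpina10 differed by −3.37, Serpinb9 by −1.74, Serpina7 by −1.55 and Serpinb6a by −1.31 on the log2(FPKM + 1) scale, each with the smaller response in cKO. Serpina7 entered the test through the WT cisplatin group alone, which favoured its call. Serpinb8 had 1 library far from the others of its group: cKO cisplatin replicate 2 held 11.01 FPKM, and the other 3 held 2.71 to 3.96 FPKM. Among 44 sets of 4 libraries looked at, this was the only such gap, and chance alone gives about 1 in 20.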

How the results depend on the processing

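The 110 member differences (22 members in 5 comparisons) were recomputed under up to 23 alternatives, 2515 values in all. 0 called differences reversed, 43 values lost a call, 36 gained one, and 96 changed sign with no call in either setting. Of 28 called differences, 22 kept the call in every alternative that kept the gene. The exceptions were Serpina3g, Serpinb1a and Serpinf2 in cKO against WT cisplatin, and Serpina10, Serpinb6a and Serpinb9 in the difference of responses. The number of members called in the WT response ran from 10 to 14 (12 in the main setting) and in cKO against WT cisplatin from 10 to 13 (12). The filter alternatives change which members are counted: a mean of at least 1 FPKM removes Serpina7 and Serpinc1, and no filter adds low members. No single call of the WT response was lost where the gene was kept. In the cKO response the number called was 0 throughout except 3 with array weights. In the difference of responses it was 4 in the main setting, 1 with no filter on low values, where 29480 genes share the adjustment, 10 with array weights, and 9 without replicate 1 of both cisplatin groups. Leaving out 1 library gave 1 to 9, with 1 without WT untreated replicate 2 or 3 or cKO untreated replicate 3, and 9 without WT cisplatin replicate 1. It was 1 without cKO untreated replicate 1 and cKO cisplatin replicate 4 together, an alternative chosen after seeing the data. Beyond smaller sets and more genes adjusted, the cause was not tested. No paired analysis was possible because the labels number no replicates. At 0.0130 to 0.0273 FPKM for 1 read in 1 kb, depth limits Serpina7, Serpina1c, Serpinc1 and the members below the filter most.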
